A study of Mus musculus with 41 samples.

Results

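The 4 genes Gja1, Gjb2, Gjb5 and Gjb6 were examined for binding of SOX9 and of the histone methyltransferases MLL3/4, which act at enhancers. Their peaks were those of 16 peak lists that overlapped the gene body with 50 kb to each side (mm10). Gjb2 and Gjb6 lie next to each other and share peaks, so the 4 genes made 3 loci. The windows were chr10:56327330-56452513 for Gja1 (plus strand), chr14:57048600-57183611 for Gjb2 and Gjb6 (both on the minus strand) and chr4:127304809-127408181 for Gjb5 (minus strand). They held 160 of the 281317 peaks in all 16 lists, and after merging peaks that overlapped, 45 of 86613 regions. Of these 45 regions, 19 lay in the Gja1 window, 7 in the Gjb2-Gjb6 window and 19 in the Gjb5 window. The loci were chosen from the data, because the strongest MLL3/4 peak of uninduced skin that had no counterpart after a week of SOX9 lies near Gja1. What follows on the loss of skin MLL3/4 peaks is therefore a description.

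Connexins are membrane proteins that assemble into hemichannels, and hemichannels of neighbouring cells dock to form gap junctions, through which ions and small metabolites pass. The epidermis uses several of them. Gja1 encodes the most widely expressed connexin, which is found in basal and spinous keratinocytes. Gjb2 and Gjb6 encode a pair of connexins that are best known from inherited deafness and also from disorders of skin thickening. Gjb5 encodes a beta connexin of stratified epithelia. Keratinocytes change their connexins as they differentiate, heal wounds or form hair follicles.

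CUT&RUN (CNR), which cuts and releases the DNA beside an antibody bound to its target, was done in epidermal stem cells (EpdSCs) and in cultured keratinocytes. The skin came from CD1 male mice that carried K14rtTA, in which the Krt14 promoter drives the tetracycline activator in basal epidermis, and TRE-myc-Sox9, a MYC-tagged Sox9 that is switched on by doxycycline (DOX). The uninduced skin at day 0 (D0) therefore carried both transgenes. EpdSCs were sorted from back skin as CD31, CD45, CD117 and CD140a negative, CD49f high, CD34 negative and Ly6A high cells at D0 (P21), week 1 (W1, P28), W2 (P35), W6 (P63) and W12, where W12 came from skin grafted onto Nude mice and has no age in the labels. SOX9 was mapped at all 5 times and MLL3/4 at D0, W1 and W2. Cultured keratinocytes came from back skin and carried WT-SOX9, a SOX9 without its transactivation domain (noTA in the labels, dTA-SOX9 here) or a SOX9 without its DNA-binding HMG domain (noHMG, dHMG-SOX9 here). They were profiled for MLL3/4 and for the MYC tag, first in uninduced WT-SOX9 cells and then in each of the 3 lines given DOX at 1 µg/ml.

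Each list was called on 2 samples joined, so a group had 1 list and no spread between replicates, and no difference between groups was tested. Shares are given with 95% Wilson intervals, which cover counting error only. For MLL3/4 with WT-SOX9 and DOX, the titles number the samples as replicates 1 and 2. Their labels otherwise describe both as replicate 2, so the replicates that made up this list are uncertain. The lists differ in length, from 792 peaks for SOX9 at D0 to 20579 at W6, from 37072 for MLL3/4 at D0 to 31539 at W1 and 29281 at W2, from 33975 for cultured MLL3/4 without DOX to 10543 with WT-SOX9, and from 2242 for the MYC tag without DOX to 11341 with dTA-SOX9. The part of list length in a presence or absence was not tested, but counts from lists cut to equal size are given as an alternative. As a check of the cell type, each of Krt5, Krt14, Itga6 and Trp63, which mark basal epidermis, had 1 or 2 D0 MLL3/4 peaks within 1 kb of its starts, and Ptprc, Pecam1, Kit, Pdgfra and Cd34, which encode CD45, CD31, CD117, CD140a and CD34, had 0. In windows with 50 kb to each side, the basal genes had 5 to 23 and the other genes 0 to 2, except Pecam1 with 18.

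The sequences on which the account turns are printed here, 5′ to 3′ on the plus strand of GRCm38.p6 (mm10). Each is named by the distance of its region's midpoint from the start of a member gene, in that gene's direction of transcription. All regions but the Gja1 promoter are shown as the 201 bases around the maximum of a peak. Capitals mark 7-letter words searched on both strands, which are the SOX words CCATTGT or CCTTTGT, as well as GCATTGT or GCTTTGT, the AP1 word TGACTCA, which reads TGAGTCA on the other strand, and the GATA words AGATAAC or AGATAAG. The RUNX word AACCACA and a TP63 word of 16 letters were also searched. No word overlaps another in the sequences shown. The first pair are the 2 strongest D0 MLL3/4 peaks of the Gja1 window, both absent at W1 and W2. The third is 1 of 2 intronic Gja1 regions that carried SOX9 at W1, and the fourth the Gja1 promoter. The fifth is the region bound by SOX9 at all 4 induced times, between Gjb2 and Gja3. The next is a region upstream of Gjb6 seen in culture but not in skin. The last pair are the Gjb5 window's region with the highest SOX9 maximum and a region of the same window found in 7 MLL3/4 lists.
Gja1 +45.6 kb (chr10:56423177-56423377): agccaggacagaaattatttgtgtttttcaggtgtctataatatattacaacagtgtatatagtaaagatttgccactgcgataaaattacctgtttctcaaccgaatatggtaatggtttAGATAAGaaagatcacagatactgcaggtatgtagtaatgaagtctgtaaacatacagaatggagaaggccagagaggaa
Gja1 +47.9 kb (chr10:56425194-56425394): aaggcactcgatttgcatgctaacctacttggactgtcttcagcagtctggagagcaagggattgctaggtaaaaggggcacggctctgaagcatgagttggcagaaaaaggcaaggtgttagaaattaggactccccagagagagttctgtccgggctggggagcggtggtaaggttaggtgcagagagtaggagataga
Gja1 +4.7 kb (chr10:56382003-56382203): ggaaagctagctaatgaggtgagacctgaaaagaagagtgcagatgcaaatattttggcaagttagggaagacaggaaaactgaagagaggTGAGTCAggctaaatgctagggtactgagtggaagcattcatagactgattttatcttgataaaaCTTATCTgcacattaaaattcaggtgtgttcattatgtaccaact
Gja1 promoter (chr10:56377050-56377299): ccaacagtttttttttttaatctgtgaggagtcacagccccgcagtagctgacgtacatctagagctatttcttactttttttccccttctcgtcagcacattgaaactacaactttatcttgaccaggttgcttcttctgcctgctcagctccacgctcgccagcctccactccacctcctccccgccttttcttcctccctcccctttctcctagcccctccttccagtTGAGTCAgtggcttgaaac
Gjb2 +32.4 kb (chr14:57072365-57072565): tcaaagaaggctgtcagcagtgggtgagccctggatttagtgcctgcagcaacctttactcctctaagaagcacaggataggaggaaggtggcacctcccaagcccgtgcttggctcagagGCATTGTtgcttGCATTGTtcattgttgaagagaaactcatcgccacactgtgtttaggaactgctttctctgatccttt
Gjb6 -5.4 kb (chr14:57138981-57139181): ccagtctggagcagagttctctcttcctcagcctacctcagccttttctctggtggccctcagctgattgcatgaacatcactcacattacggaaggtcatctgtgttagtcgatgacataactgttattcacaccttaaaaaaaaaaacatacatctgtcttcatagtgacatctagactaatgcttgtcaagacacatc
Gjb5 +9.7 kb (chr4:127348314-127348514): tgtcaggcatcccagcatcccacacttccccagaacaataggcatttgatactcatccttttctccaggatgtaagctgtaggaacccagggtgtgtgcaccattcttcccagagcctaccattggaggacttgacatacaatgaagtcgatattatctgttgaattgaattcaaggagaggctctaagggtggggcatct
Gjb5 +16.8 kb (chr4:127341393-127341593): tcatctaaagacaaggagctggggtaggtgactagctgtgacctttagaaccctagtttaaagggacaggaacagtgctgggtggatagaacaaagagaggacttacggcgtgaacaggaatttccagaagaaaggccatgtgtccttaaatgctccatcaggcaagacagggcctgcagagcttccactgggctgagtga

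Before induction, Gja1 and the Gjb5 locus were both rich in MLL3/4 peaks and Gjb2-Gjb6 was not. There were 16 D0 MLL3/4 peaks in the Gja1 window, 16 in the Gjb5 window and 2 in the Gjb2-Gjb6 window, against a median of 2 over the windows of 21911 protein-coding genes. Of those genes, 97.7% had fewer than Gja1 or Gjb5. SOX9 was nearly absent at D0, with 0 peaks at Gja1, 0 at Gjb2-Gjb6 and 2 at Gjb5.

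**Figure D1:**
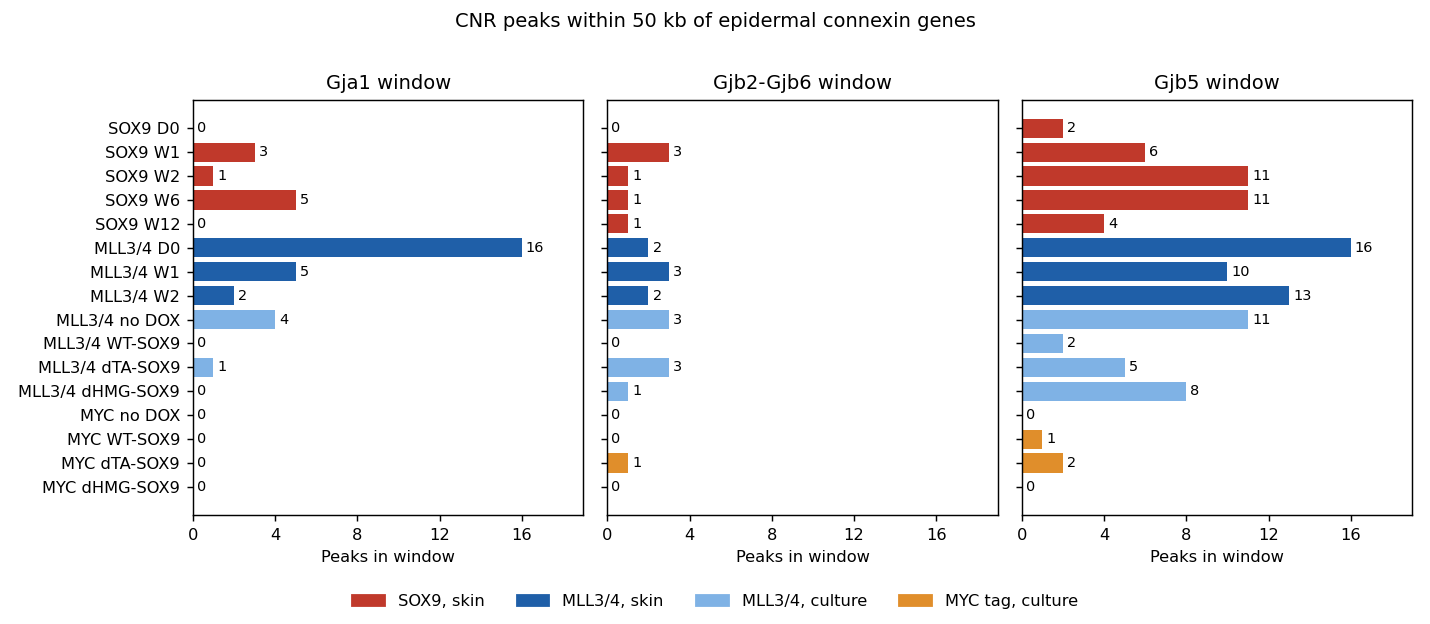
Number of CNR peaks in the window of each connexin locus (horizontal axis) in each of the 16 lists (vertical axis), with 1 list of 2 samples for each bar and no error bars. The Gja1 window held 16, 5 and 2 MLL3/4 peaks in the D0, W1 and W2 skin lists, while the Gjb5 window held 16, 10 and 13.

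After SOX9 was induced, fewer MLL3/4 peaks were listed around Gja1, and the Gjb5 window held 10 or more at each time. In the Gja1 window the count went from 16 at D0 to 5 at W1 and 2 at W2. At Gjb5 it went from 16 to 10 and then 13, and at Gjb2-Gjb6 from 2 to 3 and back to 2. Of all 34 D0 peaks in the windows, 21 had no overlapping W1 peak, which is 61.8% (45.0% to 76.1%) beside 48.5% of all D0 peaks. By the same measure 22 were absent at W2, which is 64.7% (47.9% to 78.5%) beside 48.7%, and 17 at both times, which is 50.0% (34.1% to 65.9%) beside 37.8%. In the Gja1 window 12 of 16 were absent at W1 (75.0%, 50.5% to 89.8%) and 15 of 16 at W2 (93.8%, 71.7% to 98.9%). In the Gjb5 window the counts were 8 of 16 at W1 (50.0%, 28% to 72.0%) and 6 of 16 at W2 (37.5%, 18.5% to 61.4%). The Gjb5 values moved with the processing, since merging peaks within 500 bp gave 22.2% (2 of 9) at W1 and at W2, and the top 50% of each list gave 58.3% (7 of 12) at both. In lists of equal size, 75% at W1 and 91.7% at W2 were absent at Gja1, and 46.7% and 33.3% at Gjb5. The loss at W1 chose the loci, and the W2 comparison shares the D0 list, so nothing is read from these shares.

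The strongest lost peak of the whole list lay beyond the 3′ end of Gja1, at chr10:56422421-56423483, 45.6 kb from its start in intergenic sequence. Its total signal, which is coverage summed over its bases and not scaled to depth, was 8698, with a maximum of 34. It ranked 362 of 37072 D0 peaks and first of the 17963 lost ones, just ahead of lost peaks of 7941 on chromosome 15 and 7126 on chromosome 6. The region was in 1 of the 16 lists and had no SOX9 peak at any time. A neighbour at +47.9 kb, chr10:56424896-56425625, had a total signal of 4745 and rank 1792, and was also in the D0 MLL3/4 list alone. In the top decile of D0 peaks by total signal, 3.78% of all peaks were lost at W1. The windows held 3 of these, namely the 2 beyond Gja1, both lost, and 1 at the Gjb5 locus, which stayed at W1 and W2.

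**Figure D2:**
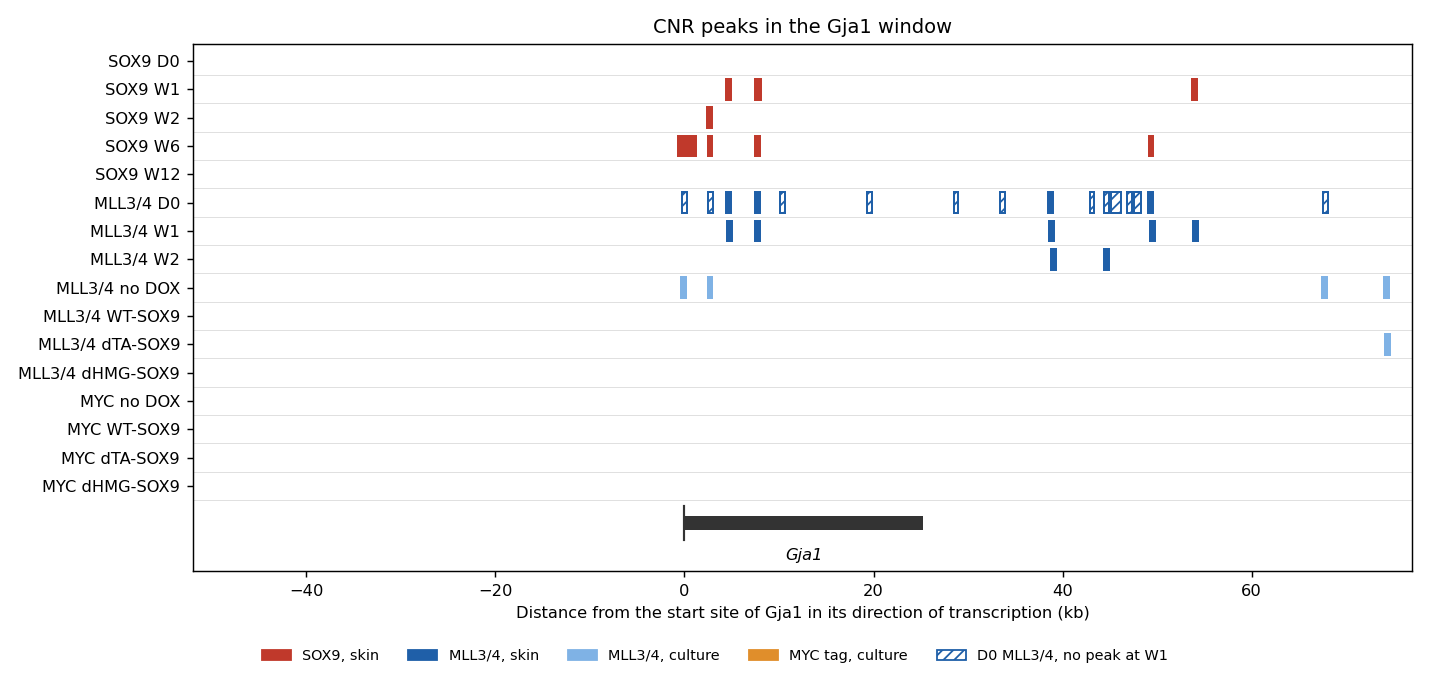
CNR peaks in the Gja1 window by distance from the Gja1 start site in kb (horizontal axis) and by list (vertical axis), with narrow peaks drawn wider than they are so that they can be seen. Hatched D0 MLL3/4 peaks, 12 of 16, have no counterpart at W1, and SOX9 peaks at W1 sit on 2 of the 4 that stayed.

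The MLL3/4 signal around Gja1 lay on both the gene and its downstream side. The 10 peaks beyond its 3′ end, from chr10:56405955 to chr10:56445266, summed to 21309 of the window's 30644, with a median of 978 a peak. Without the 2 strongest, at +45.6 and +47.9 kb, the rest summed to 7866. Of all 10, 8 were absent at W1 and 9 at W2. The 6 peaks at the start and in the gene summed to 9335, with a median of 1503, and 4 were absent at W1 and 6 at W2.

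At the Gja1 start itself, a D0 MLL3/4 peak (chr10:56377096-56377520, total 1477, rank 13769) had no counterpart at W1 or W2. SOX9 was there at W6 alone, with a maximum of 1805 RPKM (43 fragments), close to the 1800 RPKM that admitted a peak. RPKM is coverage per kb, divided by the number of fragments in the library. The promoter sequence printed above holds the AP1 word at base 232 of 250, a word that 4.46% of 32851 RefSeq promoters held in their 250 upstream bases. The same start had an MLL3/4 peak in cultured cells without DOX (total 1176) and none in the 3 cultures with DOX.

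A pair of intronic regions of Gja1 kept MLL3/4 at W1 and were met by SOX9 at that time. At +4.7 kb (chr10:56381747-56382346) the D0 MLL3/4 peak, with a total of 2497, stood within the top 17.1% of its list and was followed by a W1 peak within the top 21.1%, and none at W2. SOX9 covered it at W1 alone, with a maximum of 2305 RPKM (40 fragments). At +7.7 kb (chr10:56384742-56385373) MLL3/4 stood within the top 22.7% of the D0 list and the top 33.8% of the W1 list, again with none at W2. It held the highest SOX9 maximum of the Gja1 window, 3232 RPKM at W6 (77 fragments) after 2247 RPKM at W1 (39 fragments), and had no SOX9 peak at W2 or W12. In the +4.7 kb sequence the AP1 word began at base 92 and a GATA word at base 157, to the left and right of the SOX9 maximum in its middle.

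The remaining D0 peaks in or within 10 kb of Gja1 ranked from 13156 to 35426 and were all absent at W1 and W2. They were at +2.7 kb (total 1177), where SOX9 appeared at W2 and W6, and at +10.4 kb in the coding exon (570), +19.6 kb (1529), +28.7 kb (736) and +33.7 kb (520), where SOX9 had no peak at any time. A single MLL3/4 peak was new at W1, at +54.0 kb (chr10:56431154-56431468, total 599, rank 26707), and a SOX9 peak of 1902 RPKM (33 fragments) with a SOX word lay on it at W1. It had no W2 counterpart. The other 6 D0 peaks beyond the gene, from +38.9 to +67.8 kb, had totals of 614 to 1682. Of these, the ones at +38.9 and +49.5 kb were present at W1 and the one at +44.7 kb at W2, with a W2 total of 618. The region at +38.9 kb also held a W2 peak (chr10:56416232-56416547, total 920), which overlapped its W1 peak but not its D0 peak.

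SOX9 peaks in the Gja1 window were counted at each time. From D0 through W1, W2 and W6 to W12, the counts were 0, 3, 1, 5 and 0, beside medians over all protein-coding windows of 1 at W1, W2 and W6 and of 0 at D0 and W12. The W1 count at Gja1 was higher than at 79.6% of genes and the W6 count than at 88.4%. These counts moved with the processing, since Gja1 held 0 at every time in lists of equal size and above 3600 RPKM, and in the top 50% of each list it held 1 at W6 and 0 at the other times. At the Gjb5 locus the counts were 2, 6, 11, 11 and 4, more than at 95.3% to 98.9% of genes. These also moved. From W1 to W12 the Gjb5 counts were 4, 4, 8 and 4 in lists of equal size. They were 4, 4, 8 and 2 in the top 50% of each list, and 2, 7, 4 and 0 above 3600 RPKM. At Gjb2-Gjb6 the counts in the full lists were 0, 3, 1, 1 and 1. Of the 12 SOX9 peaks in the windows at W1, 11 had no D0 SOX9 peak, beside 95.3% of all W1 peaks. SOX9 peaks in the windows lay on D0 MLL3/4 peaks in 9 of 12 cases at W1, 10 of 13 at W2, 14 of 17 at W6 and 2 of 5 at W12. The shares are 75.0% (46.8% to 91.1%), 76.9% (49.7% to 91.8%), 82.4% (59.0% to 93.8%) and 40.0% (11.8% to 76.9%), beside 67.7%, 66.3%, 52.8% and 40.7% of the whole lists. The W6 share of the whole list lay below the interval of the windows, and 10 of those 14 peaks were in the Gjb5 locus, but the windows of Gja1 and Gjb5 were also rich in D0 MLL3/4 peaks, whose part in this was not tested.

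D0 MLL3/4 peaks that SOX9 met at W1 were mostly those that stayed. Of the 34 D0 peaks, 9 were overlapped by a W1 SOX9 peak, which is 26.5% (14.6% to 43.1%) beside 32% of the list. Among the 13 kept at W1, 8 were overlapped (61.5%, 35.5% to 82.3%), beside 55% of all kept peaks. Among the 21 lost at W1, 1 was overlapped (4.76%, 0.846% to 22.7%), beside 7.58% of all lost peaks. Both shares in the windows lay near those of the whole list. The 1 exception was at Gjb6. At Gja1, 0 of 12 lost peaks were overlapped, and at Gjb5 0 of 8. Looking over W1 to W12, 4 of the 17 peaks lost at both times were overlapped by SOX9 at some point (23.5%, 9.56% to 47.3%), beside 12.4% of all peaks lost at both times, which lies in that interval.

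**Figure D3:**
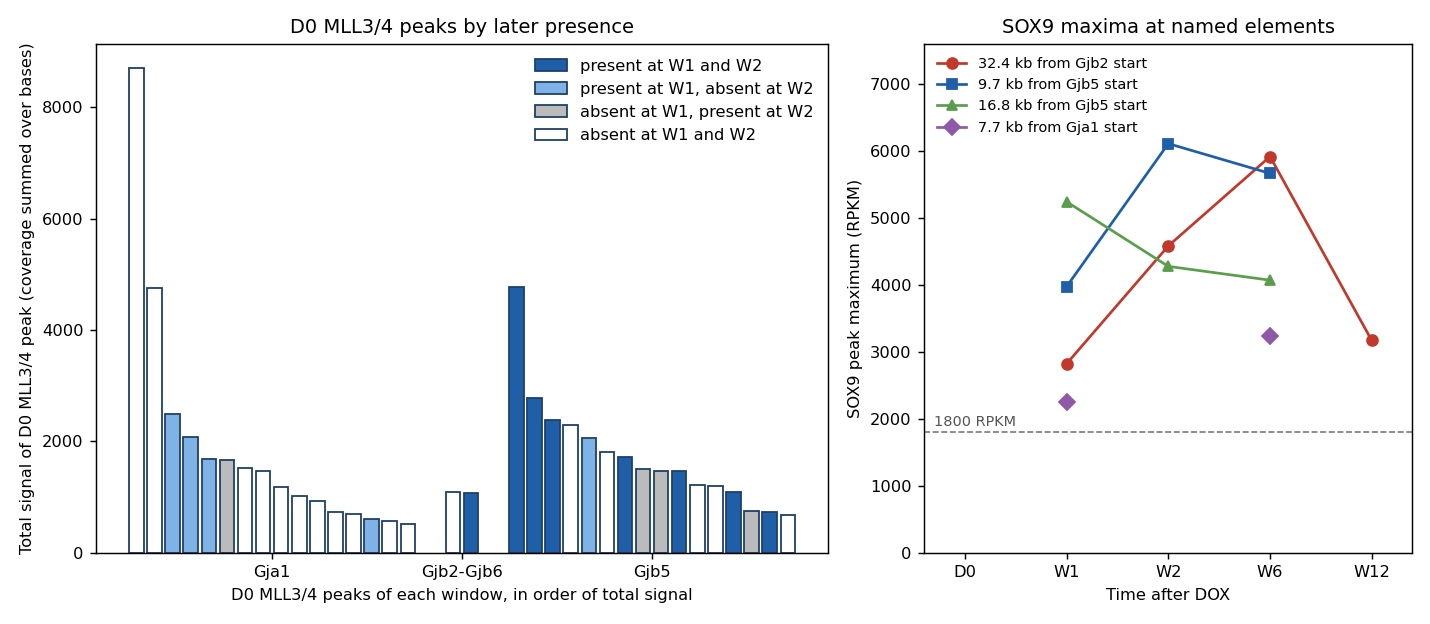
Left, total signal (unscaled coverage summed over bases) of each D0 MLL3/4 peak in the 3 windows, coloured by whether it was present at W1 and W2. Right, SOX9 peak maximum in RPKM at 4 regions against time after DOX, where a missing point is a list with no peak above 1800 RPKM; the Gjb2 +32.4 kb region reached 5919 RPKM at W6.

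The Gjb2-Gjb6 locus held few regions, but among its 7 was the 1 region of the 45 that SOX9 bound at W1, W2, W6 and W12. The share of all regions in the series bound at these 4 times is not given here. The region lay at chr14:57071919-57072639, +32.4 kb from Gjb2, between Gjb2 and Gja3, a connexin gene of the lens. It is named by Gjb2 as the nearest member, but the Gja3 start (chr14:57058100) is nearer to it than the Gjb2 start (chr14:57104702). Its SOX9 maximum was 2824 RPKM at W1 (49 fragments), 4584 at W2 (60), 5919 at W6 (141) and 3171 at W12 (69), with no peak at D0. The highest value was thus at W6, and every one stood well over the 1800 RPKM limit. MLL3/4 was absent there at D0 and present at W1 (rank 15581 of 31539) and W2 (rank 28993 of 29281), and it also appeared in cultured dTA-SOX9 cells (rank 22519 of 25948). Its sequence holds the SOX word GCATTGT at bases 122 and 134, both to the right of the W6 maximum in its middle. Within 100 bases of the maximum, 27.1% of all W6 SOX9 peaks held a SOX word, beside 2 of the 17 in the windows.

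A second region, +19.2 kb from Gjb2 (chr14:57085125-57085941), held MLL3/4 at all 3 times. By total signal the peak stood within the top 53.6% of the D0 list, 11.8% of the W1 list and 22.0% of the W2 list, and since each list is 1 measurement, no error can be given for these places. SOX9 was on it at W1 alone, with a maximum of 2881 RPKM (50 fragments). The third skin region with SOX9 lay 3.9 kb upstream of Gjb6 (chr14:57137172-57137794). Its D0 MLL3/4 peak (1096, rank 19546) was absent at W1 and W2 although SOX9 met it at W1 (2190 RPKM, 38 fragments). No peak of any of the 16 lists fell within 1 kb of the Gjb2 or Gjb6 starts, and neither promoter held any of the words in its 250 upstream bases.

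**Figure D4:**
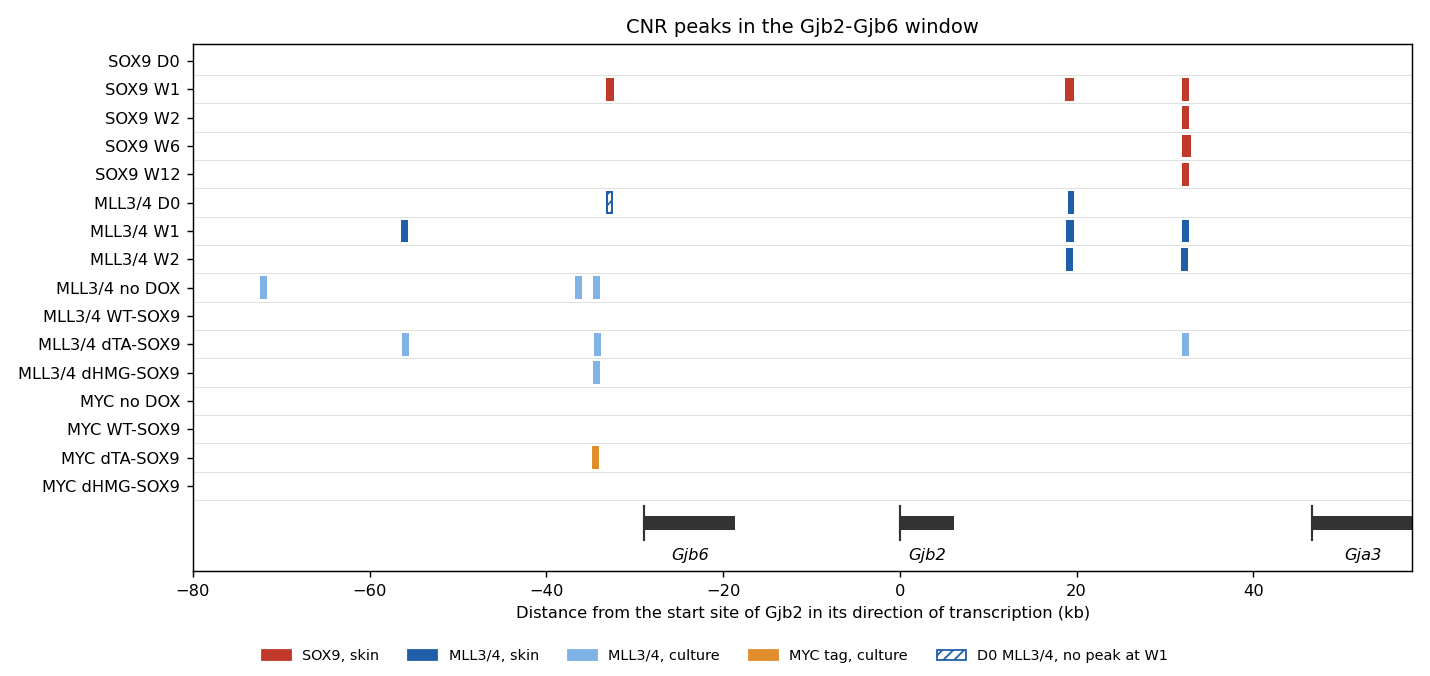
CNR peaks in the Gjb2-Gjb6 window by distance from the Gjb2 start site in kb (horizontal axis, negative towards Gjb6) and by list (vertical axis), with narrow peaks drawn wider than they are. SOX9 peaks line up at 32.4 kb in all 4 induced skin lists, and the 3 MLL3/4 peaks of cultured cells without DOX lie on the Gjb6 side.

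Cultured cells without DOX had 3 MLL3/4 peaks in the Gjb2-Gjb6 window. Of these 0 overlapped a D0 skin peak, with an interval of 0.0% to 56.1% that holds the 44.6% of the whole cultured list. The strongest of the 3 was 5.4 kb upstream of Gjb6, at chr14:57138681-57139308. It stood within the top 33.6% of the no-DOX list, the top 10.4% of the dTA-SOX9 list and the top 19.99% of the dHMG-SOX9 list, and it had no peak with WT-SOX9. The MYC tag was found there with dTA-SOX9 alone (2461 RPKM, 12 fragments). MLL3/4 peaks of dTA-SOX9 cells at Gjb2 +32.4 kb and 27.0 kb upstream of Gjb6 lay in regions that also held a W1 skin peak. These cultured lists are in unscaled coverage and were compared only by presence and rank.

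The Gjb5 locus had the most SOX9 peaks. Of its 19 regions 14 held SOX9 at some time from W1 to W12, beside 7 of 19 at Gja1 and 3 of 7 at Gjb2-Gjb6. The SOX9 lists helped to define the regions, and the share over all 86613 regions is not given here. These counts are therefore a description. The Gjb5 window also covers Gja4, which encodes an endothelial connexin. None of the 19 regions lay at Gja4.

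**Figure D5:**
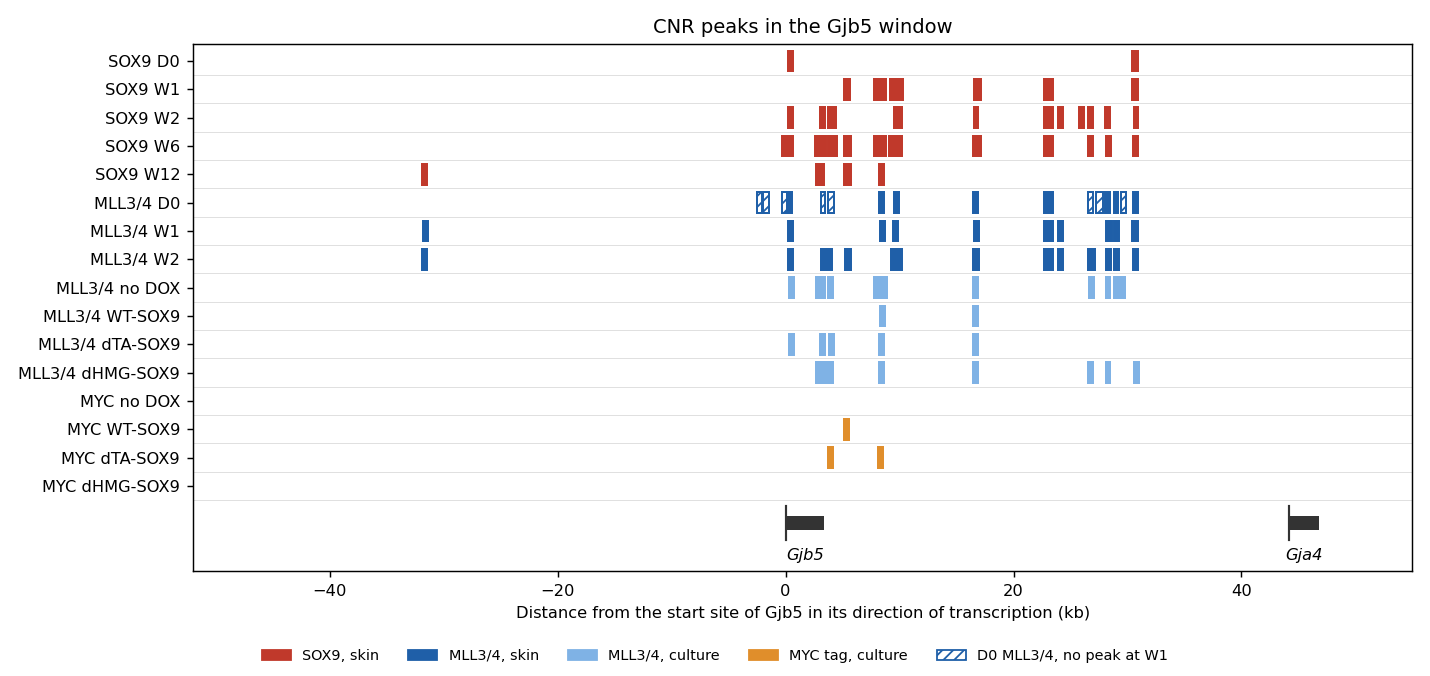
CNR peaks in the Gjb5 window by distance from the Gjb5 start site in kb (horizontal axis) and by list (vertical axis), with narrow peaks drawn wider than they are. The W1, W2, W6 and W12 lists hold 6, 11, 11 and 4 SOX9 peaks, and 8 of 16 D0 MLL3/4 peaks (hatched) have no counterpart at W1.

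The highest SOX9 maximum of all 3 windows was at +9.7 kb (chr4:127347853-127349144), in intergenic sequence. It was 3976 RPKM at W1 (69 fragments), 6112 at W2 (80) and 5667 at W6 (135), with no peak at D0 or W12. MLL3/4 was present there at all 3 times, within the top 76.9% of the D0 list by total signal, 34.3% of the W1 list and 14.2% of the W2 list. The printed sequence around this maximum held none of the words. No MLL3/4 or MYC-tag peak of cultured cells lay on it.

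At +16.8 kb (chr4:127341028-127341758) MLL3/4 was present in all 7 lists. In skin it stood within the top 30.1% of the D0 list, 11.4% of the W1 list and 14.7% of the W2 list. In culture it stood within the top 11.9% of the no-DOX list, the top 33.7% for WT-SOX9, the top 38.3% for dTA-SOX9 and the top 9.30% for dHMG-SOX9. The SOX9 maximum was 5244 RPKM at W1 (91 fragments), 4278 at W2 (56) and 4072 at W6 (97). The strongest D0 MLL3/4 peak of the window, at +23.1 kb (chr4:127334701-127335519), had a D0 total of 4769 and stood within the top 4.78%, 15.9% and 4.14% of the D0, W1 and W2 lists, with SOX9 at W1, W2 and W6.

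At the Gjb5 start 2 D0 MLL3/4 peaks lay in 1 region (chr4:127357545-127358510). The one with a total of 1461 was present at W1 and W2 and the other, with 1211, was absent at both. This start was also 1 of the 2 places where SOX9 had a peak before induction (1937 RPKM, 63 fragments), and SOX9 was there again at W2 (4125 RPKM, 54 fragments) and W6 (2309 RPKM, 55 fragments) but not at W1. Both places held an AP1 word near the maximum, as did 45.3% of all 792 D0 SOX9 peaks within 50 bases.

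Just upstream of Gjb5 a pair of MLL3/4 peaks was lost at W1 and W2. They lay 1.7 kb and 2.3 kb upstream, at chr4:127359652-127360120 (total 1812, rank 10394) and chr4:127360215-127360660 (2290, rank 7309), and the latter was the strongest lost at W1 in this window. Neither had SOX9 at any time nor a peak in culture. The strongest gained at W1 was far upstream, at 31.6 kb (chr4:127389608-127390053, total 661), was present at W2 and had SOX9 at W12 alone (2160 RPKM, 47 fragments).

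New MLL3/4 peaks were counted in the same way. At W1 5 of 18 had no D0 counterpart (27.8%, 12.5% to 50.9%), beside 39.7% of the W1 list, and at W2 5 of 17 (29.4%, 13.3% to 53.1%), beside 35.7%, and both intervals hold the share of the list. Over both times they lay in 7 regions, of which 6 had no MLL3/4 at D0. Of the 7, 5 held SOX9 at some time from W1 to W12, and the region at Gja1 +38.9 kb, which had MLL3/4 at D0, did not. The share over all regions with new MLL3/4 peaks is not given here, so this count is a description.

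In cultured keratinocytes without DOX, 18 MLL3/4 peaks lay in the windows, of which 4 were at Gja1, 3 at Gjb2-Gjb6 and 11 at Gjb5. Of the 34 D0 skin peaks, 12 were seen in culture (35.3%, 21.5% to 52.1%), beside 40.4% of the list. The Gjb5 locus shared most, with 9 of 16 (56.2%, 33.2% to 76.9%), and Gja1 3 of 16 (18.8%, 6.59% to 43.0%), and these intervals overlap. Of the 18 cultured peaks, 12 were also in D0 skin (66.7%, 43.7% to 83.7%), beside 44.6% of the cultured list. With WT-SOX9 2 of the 18 peaks were kept (11.1%, 3.1% to 32.8%), beside 18% of the list. With dTA-SOX9 7 were kept (38.9%, 20.3% to 61.4%), beside 55.7%, and with dHMG-SOX9 8 (44.4%, 24.6% to 66.3%), beside 56.5%. In lists of equal size only 4 of the no-DOX peaks remained in the windows, and the shares kept were 50%, 75% and 100%. The WT-SOX9 list, at 10543 peaks, is also less than 50% as long as any of the other cultured MLL3/4 lists. The 2 peaks kept with WT-SOX9 were both in the Gjb5 locus, at +16.8 kb and +8.3 kb. At Gja1 0 of 4 were kept with WT-SOX9 and dHMG-SOX9 and 1 with dTA-SOX9, at +74.3 kb.

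In culture the MYC tag of the SOX9 proteins was mapped at the same loci. WT-SOX9 gave 1 MYC-tag peak and dTA-SOX9 gave 3, while dHMG-SOX9 and the uninduced cells each gave 0. Over all protein-coding windows the median was 0 in each of these lists, and windows without a peak made up 68% for WT-SOX9, 59.0% for dTA-SOX9, 70.7% for dHMG-SOX9 and 79.9% for uninduced cells. The 1 peak of WT-SOX9 lay in the Gjb5 window. It held a SOX word within 50 bases of its maximum, as did 34.2% of all WT-SOX9 MYC-tag peaks. The 3 peaks of dTA-SOX9 had 11 to 14 fragments at their maximum.

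Over the 34 D0 MLL3/4 peaks, 9 held the AP1 word within 50 bases of the maximum, beside 12.9% of the list. A SOX word was found in 2, beside 5.31%, and a GATA word in 3, beside 3.61%, while RUNX and TP63 words were found in 0. At Gja1 the AP1 word was in 2 of the 11 peaks lost at both times and in 3 of the other 5. At the Gjb5 locus it was in 1 of 5 and 3 of 11. Of all D0 peaks, 10.4% of those lost at both times and 14.3% of the others held it. A word is a match of letters, and these small counts describe the regions shown.

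The other connexin and pannexin genes, 15 outside these loci, had little MLL3/4, with a median of 1 D0 peak in the window and at most 8. At W1 8 of the 15 had fewer MLL3/4 peaks than at D0 and 0 had more, beside 48.2% and 16.8% of all protein-coding genes. Among those with at least 5 D0 peaks were Gjc3, with 8, 7 and 6 peaks in the D0, W1 and W2 lists, Gjd3 with 7, 3 and 3, and Panx1, which encodes a channel related to connexins, with 8, 5 and 3. SOX9 had a W1 peak near 6 of the 15, beside 52.4% of all protein-coding genes. Tjp1, whose junction scaffold protein binds connexins, had 5, 5 and 5 MLL3/4 peaks at the same times.

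The genes whose peak counts over the 16 lists were most like those of Gja1, by Pearson's r of log2 counts relative to all genes, were Pdlim2 and Sorbs3, which share a window (r = 0.907), and Sdr42e1 (r = 0.901). For Gjb2-Gjb6 they were Gm11114 (r = 0.869), Fam110b (r = 0.816) and Dok5 (r = 0.805), and for Gjb5 they were Perp (r = 0.917), which encodes a desmosomal protein of stratified epithelia, Deptor (r = 0.911) and Senp2 (r = 0.901). These r values are across lists that share antibodies and samples and are given as a description.

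For the edges of the windows only the nearest peaks were listed, so the number of peaks decided by the 50 kb limit is not given. The nearest peaks inside and outside the Gja1 window were 694 bp within its downstream edge (cultured dTA-SOX9 MLL3/4, total 1417) and 3367 bp beyond it (W1 MLL3/4, total 3027). The strongest W1 MLL3/4 peak inside that window had a lower total, 2066. For Gjb2-Gjb6 the nearest peaks were 6798 bp within and 6614 bp beyond the edge on the Gjb6 side, and for Gjb5 18128 bp within and 52447 bp beyond its edges.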

How the data were processed

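CNR peak lists of SOX9 and MLL3/4 in sorted EpdSCs and of MLL3/4 and the MYC tag in cultured keratinocytes were used. The authors aligned paired reads to mm10 with Bowtie2 2.2.9, used Picard against duplicates, limited fragments to 120 bp, joined the 2 samples of a group, made coverage with deepTools 3.1.2 and called peaks with SEACR (stringent, 0.01). For SOX9 and the MYC tag the authors gave peak maxima in RPKM and kept peaks above 1800 RPKM. The maximum signal deposited in the 7 pooled MLL3/4 lists is raw coverage in whole numbers, so these were compared only by presence and by rank of total signal within a list. The total signal is the peak score that the authors deposited, summed over the bases of a peak. Both deposited lists of replicate 1 without DOX served as an alternative. Of 41 samples, 32 stood behind the 16 pooled lists, and 9 (JUN, ARID1a and BRG1) were not analysed here.

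Groups came from the labels. Lists were read with Python 3.11.15 and pandas 2.3.3, sequences with pysam 0.24.0, and figures drawn with matplotlib 3.10.9. Genes were from GENCODE vM21 and promoters from RefSeq (GRCm38.p6), and coordinates count from 1. Peaks sharing at least 1 bp counted as overlapping, and a D0 peak without an overlapping later peak as lost. Shares were given 95% Wilson intervals (scipy 1.17.1). Overlap and merging of peaks were tested on simulated intervals. Words were searched within 50 bases of a maximum. The lists do not give depth. Where values are in RPKM, the value of 1 fragment is the step of which all maxima are multiples (31 to 76 RPKM for SOX9, 164 to 248 for the MYC tag), and fragments at a maximum follow from it. For MLL3/4 the depth is unknown. In each pooled cultured MLL3/4 list 3 peaks, and in each replicate 1 list 4, lay off the chromosomes and were left out.

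The members, lists of genes, words and comparisons were chosen with earlier results of these data known. The regions named were, for each locus, the 2 strongest D0 MLL3/4 regions, the strongest lost and gained at W1, those with the highest SOX9 maximum and the highest WT-SOX9 MYC-tag maximum, those at member starts, and those lost at W1 and W2 within 10 kb of a member. Other connexin and pannexin genes were named with at least 5 D0 MLL3/4 peaks, and the 3 most alike genes by Pearson's r over the 16 lists (pseudocount 0.5, at least 10 peaks). The Gja1 +4.7, +38.9, +44.7, +49.5 and +74.3 kb, Gjb2 +19.2 kb, Gjb6 -5.4 kb and Gjb5 +8.3 and +16.8 kb regions were added after their values were seen. Some regions and genes that this rule names are not reported here. Alternatives were windows of 10 kb, the top 50% of each list, a maximum above 3600 RPKM, merging of peaks within 500 bp, an overlap of 50%, lists of equal size, replicate 1 alone and word windows of 100 bases.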

Additional observations from a re-analysis of the deposited data

Results flagged for a closer look

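At Gjb2-Gjb6 the MLL3/4 peak count went in opposite directions with SOX9 in skin at W1 and in culture. In skin it went from 2 at D0 to 3 at W1, a difference of 1, and in culture from 3 without DOX to 0 with WT-SOX9, a difference of -3. At W2 the skin count was 2 again, the same as at D0. The difference was not tested, since each group has 1 list, and the WT-SOX9 list is the shortest cultured MLL3/4 list (10543 peaks against 33975 without DOX). In lists of equal size, 10543 peaks each, the window held 0 cultured MLL3/4 peaks without DOX and 0 with WT-SOX9, so the opposite direction was not seen there.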

How the results depend on the processing

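No paired analysis was possible because each group has 1 list called on both of its samples and no result comes from a test. The share of D0 MLL3/4 peaks lost at W1 ranged from 52% to 70.6% and at W2 from 58.6% to 76.5% over the 5 alternatives, all within the intervals given. With windows of 10 kb the total count was 77 in place of 160, SOX9 peaks numbered 6, 5, 10 and 3 at W1, W2, W6 and W12, and 0% of the W1 MLL3/4 peaks were gained (0 of 5). With the top 50% of each list, SOX9 peaks numbered 5, 5, 10 and 3, 14.3% of D0 MLL3/4 peaks were overlapped by SOX9 at W1 and 14.3% were seen in culture, 66.7% of no-DOX peaks were kept with dTA-SOX9 and 83.3% with dHMG-SOX9 (of 6), and MYC-tag peaks numbered 0 with WT-SOX9 and 1 with dTA-SOX9. Above 3600 RPKM, SOX9 peaks numbered 2, 8, 5 and 0, the overlap with SOX9 at W1 was 5.88%, and MYC-tag peaks numbered 0 with WT-SOX9 and with dTA-SOX9. In lists of equal size, SOX9 peaks numbered 5, 5 and 9 at W1, W2 and W6, MYC-tag peaks 0 with WT-SOX9 and with dTA-SOX9, and of 4 no-DOX peaks the WT-SOX9, dTA-SOX9 and dHMG-SOX9 lists kept 50%, 75% and 100%. The GATA word was in 5 D0 MLL3/4 peaks within 100 bases in place of 3. With replicate 1 alone the same lists kept 10%, 35% and 45%, with 35.3% of D0 peaks seen in culture and 0 MYC-tag peaks. The order of the 3 lines by share kept was the same on the full lists and on lists of equal size, and with 4 peaks the latter says little.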
